A study of Homo sapiens with 3 samples.

Results

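Cancer-testis genes are expressed in male germ cells, are silent in most adult tissues and come back on in many tumours. A set of 65 of the 19220 genes counted was examined in the oral squamous carcinoma line CAL27 and its resistant derivatives. It was chosen by gene symbol: every symbol that starts with MAGEA, MAGEB, MAGEC, GAGE, SSX or PAGE followed by a digit, plus ACTL8, PRAME, CTAG1B, CTAG2, CT83, DDX43, MAEL, SYCP1 and TEX101. The symbol rule also took in SSX2IP, a broadly expressed gene whose product binds SSX2, and MAGEA10-MAGEA5, a read-through transcript. These were set apart, which left 63 cancer-testis genes. The set was put together with counts of these libraries in view, those of ACTL8 among them, so the values are given as a description. GENCODE 29 (GRCh38) places 53 of them on the X chromosome and 6 on autosomes, and 4 GAGE copies had no match there.

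The study asked which genes differ between parental and drug-resistant cells. Parental CAL27 cells were grown drug-free, CAL27/5FU cells were kept in 10 μM 5-fluorouracil (5FU), and CAL27/OXA cells were kept in 10 μM oxaliplatin (OXA). All lines have the CAL27 background and the same growth medium, and 1 RNA-seq library per line was analysed here. CAL27/5FU cells were selected with rising doses of 5FU, whether they are 1 clone is not stated, and how CAL27/OXA cells were made is not described in the sources used here. Because a single library of each line matched the sample labels and was analysed, the differences below were not checked against replicates and carry no p-value. The libraries held 37297713 to 43455488 counts. Levels were expressed as CPM, the counts scaled to a common library size by TMM, and a gene was called where its ratio was past 2-fold. The interval given with a ratio is the exact 95% interval (Clopper-Pearson) from both counts, and it covers counting error only. A count of 0 allows up to 3 counts, and this number served as the floor for presence. The 12 squamous epithelial markers examined, KRT5 and TP63 among them, were past the floor in every library, although 9 of the 12 were past 2-fold lower in CAL27/5FU and 7 of the 12 in CAL27/OXA. Of 8 defining markers of male germ cells, DDX4, DAZL, PRM1, PRM2, TNP1 and SPATA16 had 0 counts in all libraries. SYCP3 had 4, 8 and 9 counts, and 2, 1 and 1 of the 8 markers were past the floor in CAL27, CAL27/5FU and CAL27/OXA. The sum over the list was 0.203 to 0.255 CPM. The leukocyte markers summed to 85.1 to 127 CPM, with CD68 the highest in each, and PTPRC, the defining one, had 2, 0 and 0 counts. The fibroblast markers summed to 41.9 to 50.1 CPM, with COL3A1 at 0 in all libraries. COL1A1, within 2-fold, gave 35.6, 27.3 and 23.6 CPM of sums of 41.9, 47.2 and 50.1 in CAL27, CAL27/5FU and CAL27/OXA. COL1A2 (90, 300 and 212 counts) and LUM (120, 414 and 877) were past 2-fold higher in both resistant lines. The endothelial markers summed to 2.59 to 9.38 CPM, and among them CDH5 had 43, 338 and 163 counts. The part of these markers in the results below was not tested.

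Most genes of this class are held silent in somatic cells by methylation of CpG dinucleotides in their promoters, and loss of that methylation is a common route to their expression. MAGE proteins of the A, B and C families bind RING ubiquitin ligases, among them TRIM28, and steer their choice of substrate. PRAME is a leucine-rich repeat protein that joins CUL2 ubiquitin ligases and was found to repress retinoic acid receptor signalling. ACTL8 encodes an actin-like protein, and DDX43 a helicase of the DEAD-box family.

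The 250 bases before the RefSeq start (GRCh38.p14) are shown for ACTL8 and PRAME, the tested members whose ratios between the lines were farthest from 0, and for MAGEA4, the member with most reads in every library. They lie at chr1:17755083-17755332 (plus strand), chr22:22559266-22559515 (minus strand) and chrX:151912224-151912473 (plus strand), and each is written 5′ to 3′ with CpG dinucleotides in capitals:
ACTL8: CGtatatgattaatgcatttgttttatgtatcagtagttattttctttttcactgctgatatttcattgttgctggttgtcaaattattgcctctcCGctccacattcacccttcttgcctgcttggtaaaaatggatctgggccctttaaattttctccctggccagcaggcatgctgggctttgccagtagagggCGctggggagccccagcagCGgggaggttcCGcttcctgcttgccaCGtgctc
PRAME: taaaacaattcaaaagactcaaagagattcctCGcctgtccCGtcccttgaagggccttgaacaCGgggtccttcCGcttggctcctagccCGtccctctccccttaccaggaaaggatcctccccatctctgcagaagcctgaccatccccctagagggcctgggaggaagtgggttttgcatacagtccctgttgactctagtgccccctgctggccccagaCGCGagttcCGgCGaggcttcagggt
MAGEA4: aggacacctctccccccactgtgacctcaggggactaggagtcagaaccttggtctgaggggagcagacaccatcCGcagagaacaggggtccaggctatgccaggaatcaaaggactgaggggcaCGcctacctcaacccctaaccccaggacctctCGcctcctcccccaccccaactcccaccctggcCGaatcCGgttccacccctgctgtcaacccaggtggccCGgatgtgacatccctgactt

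These stretches hold 6, 9 and 6 CpG dinucleotides. The RefSeq bases just past the start were found in a GENCODE 29 transcript for ACTL8, PRAME and DDX43, but not for MAGEA4 and MAGEA6. A match anywhere in the transcript counted, so it does not fix the start. GENCODE 29 starts ACTL8 (17755313) and PRAME (22559361) inside the stretches shown, so part of each lies within the annotated gene. Over the whole window of 300 bases, which runs to 50 bases past the start, ACTL8 had 11, PRAME 13 and MAGEA4 10, while MAGEA6 had 19 and DDX43 21. The median over the 52 cancer-testis members with a promoter sequence was 12 (quartiles 9.75 and 13), against a median of 14 (quartiles 3 and 28) over 27305 promoters. The 14511 of these promoters that belong to genes counted here had a higher median, 22 (quartiles 9 and 32). MAEL had the most CpG dinucleotides of the members, 60. The 5 members with a mean of at least 10 counts had a median of 13, close to the median of 12 among the 47 others. The core of the Ets motif, GGAA on either strand, was present in 98.1% of the member promoters and in 95.5% of all promoters. In ACTL8 it stood at bases -26 to -23, next to a CpG, and at -20 to -17, and in PRAME the copy at -20 to -17 also adjoined a CpG. The motif TTTCCCGC (either strand), bound by E2F6, was found in 1.66% of all promoters and 13.5% of the member promoters, which were 6 of 7 SSX promoters and SYCP1. Promoters of near-identical gene copies count separately here. A match only says that these letters are in the window.

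**Figure D1:**
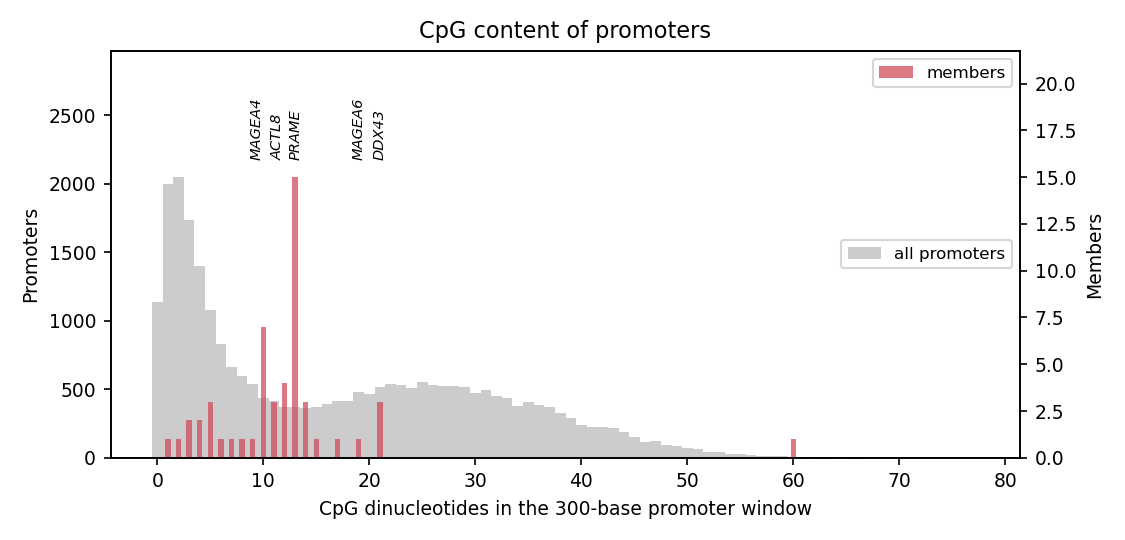
Number of CpG dinucleotides in the 300-base promoter window (x axis), for 27305 promoters (grey bars, left axis) and for the 52 cancer-testis members with a sequence (red bars, right axis). The members gather around a median of 12, and the 5 genes named in the plot lie between 10 and 21.

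Of the 63 cancer-testis genes, 46 had 0 counts in all 3 libraries and a further 4 never exceeded 3 counts. The other 13 exceeded 3 counts in at least 1 library, 8 of them on the X chromosome. With SSX2IP included, 10 of the 65 symbols (15.4%) were past the floor in the parental library, 10 (15.4%) in CAL27/5FU and 9 (13.8%) in CAL27/OXA. Over all genes counted, the shares were 74.8%, 75.4% and 75.4%. The 16 GAGE and the 8 SSX genes had 0 counts throughout, as did CTAG1B, CTAG2, CT83 and SYCP1. MAGEC1, MAGEC2, MAGEA1 and MAGEB2 were also at 0.

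Some of these zeros cannot be read gene by gene, because the members include near-identical copies. In the GENCODE 29 transcripts, all 12 GAGE genes with a transcript shared exact 100-base windows with other genes (median 88.1% of windows, range 11.3% to 100%), and so did 6 of 8 SSX genes and 7 of 11 MAGEA genes. How reads that match several genes were counted is not stated, so for the copies that share most of their windows a 0 cannot be told apart from reads that were left out. Of the 46 members at 0, 24 shared windows with other genes, to very different extents, 18 shared none and 4 had no transcript to compare. SSX1, SSX3, MAGEA1 and MAGEA11 were among those with no shared window. Of the members that carried most reads, MAGEA4, PRAME, ACTL8 and DDX43 shared 0 windows. MAGEA6 shared 33.0% of its windows with 3 other genes, which is not a share of its reads. MAGEA3 and MAGEA12 were not among the 11 MAGEA genes counted. How far the MAGEA6 level is affected was not measured.

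MAGEA4 and MAGEA6 supplied most of the cancer-testis reads. Both lie on the X chromosome, MAGEA4 (ENSG00000147381.11) from 151912509 to 151925170 and MAGEA6 (ENSG00000197172.10) from 152766136 to 152769747. MAGEA4 had 7304 counts in the parental library, 8113 in CAL27/5FU and 8254 in CAL27/OXA, or 188, 207 and 186 CPM. On the scale per gene length, the deposited FPKM values were 102, 126 and 110, which placed it at ranks 732, 520 and 669 of 19225 genes. MAGEA6 had 3097, 3465 and 4050 counts and 42.2, 53.0 and 53.1 FPKM. The levels of each gene thus lay close together in all 3 libraries, with MAGEA4 above MAGEA6 in each. Together the genes made up 90.2% of the counts of the 63 genes in parental cells (95% Wilson interval 89.6% to 90.7%), 87.8% (87.2% to 88.3%) in CAL27/5FU and 88.1% (87.5% to 88.6%) in CAL27/OXA. The log2 ratio of MAGEA4 was 0.14 (0.10 to 0.19) in CAL27/5FU against CAL27 and -0.01 (-0.06 to 0.03) in CAL27/OXA against CAL27, the latter becoming 0.12 under scaling by total counts. CAL27/OXA differed from CAL27/5FU by -0.16 (-0.20 to -0.11) in MAGEA4 and by 0.04 (-0.02 to 0.11) in MAGEA6. For MAGEA6 the log2 ratios were 0.16 (0.08 to 0.23) and 0.20 (0.13 to 0.27). Under total counts the median over every tested gene moved to 0.17 and 0.14, so these small ratios depend on the scaling. MAGEA4 overlaps MAGEA4-AS1 on the opposite strand by 1460 nt, and whether the counting used strand is not stated.

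**Figure D2:**
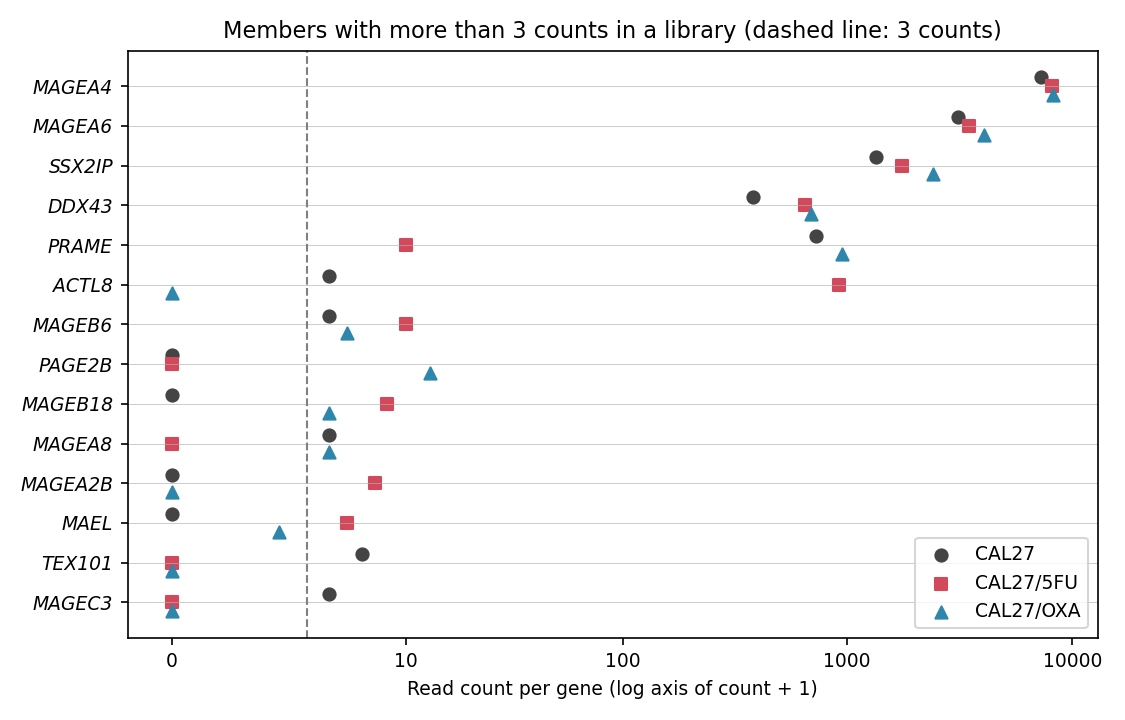
Read counts (x axis, log axis of the count plus 1) of the 14 members, SSX2IP included, with more than 3 counts in a library, for CAL27 (circles), CAL27/5FU (squares) and CAL27/OXA (triangles). MAGEA4 and MAGEA6 stay at 3097 counts or more in every library, PRAME drops to 10 in CAL27/5FU, and ACTL8 is at 918 in that library against 4 and 0 in the others.

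Only 6 members had a mean of at least 10 counts and were tested, namely MAGEA4, MAGEA6, SSX2IP, DDX43, PRAME and ACTL8. In CAL27/5FU against CAL27, 1 of the 6 (ACTL8) was past 2-fold higher and 1 (PRAME) past 2-fold lower, beside 8.46% and 6.72% of the 13676 genes tested (15.2% in either direction). In CAL27/OXA against CAL27, 0 were higher and 1 (ACTL8) was lower, beside 6.54% and 9.28% (15.8% in either direction). In CAL27/OXA against CAL27/5FU, PRAME was higher and ACTL8 lower, beside 4.18% and 8.38% (12.6% in either direction). With the whole interval past 2-fold, ACTL8 and PRAME stayed called in CAL27/5FU against CAL27, beside 5.48% of genes higher and 4.34% lower (9.81% in all). By that measure 0 members were called in CAL27/OXA against CAL27, beside 3.85% and 6.32% (10.2% in all), and PRAME and ACTL8 stayed called in CAL27/OXA against CAL27/5FU, beside 2.33% and 5.18% (7.52% in all). ACTL8 could pass the filter only through CAL27/5FU, where it is high, and the members were chosen with such values known, so nothing is read from these counts. The median log2 ratios of the 6 were 0.26, 0.20 and -0.02 in the 3 comparisons, against -0.0035, 0.01 and 0.01 over all genes tested.

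ACTL8 (ENSG00000117148.7), on chromosome 1 from 17755313 to 17827063, had nearly all of its reads in CAL27/5FU. Its counts were 4 in the parental cells, 918 in CAL27/5FU and 0 in CAL27/OXA, which are 0.103, 23.5 and 0 CPM. Per gene length it reached 13.2 FPKM in CAL27/5FU, the third highest level among the cancer-testis genes there. The rise from CAL27 to CAL27/5FU was 7.28 (6.47 to 9.71) on the log2 scale, the fifth largest rise of the 13676 genes. Taking 3 counts for the 0 in CAL27/OXA, the CAL27/5FU level was 347-fold higher, a figure that leaves out the counting error of the 918. The fitted log2 ratio of CAL27/OXA to CAL27/5FU was -8.91, and the upper bound of its interval from both counts was -8.14. That fitted ratio was the lowest among all tested genes. Between CAL27/OXA and CAL27 the counts were 0 and 4, and the interval of that ratio reached 0.41 above 0 on the log2 scale, so that a difference was not detectable at this depth although the fitted ratio of -1.63 was past 2-fold. In bulk RNA, fewer cells with a gene on and less of its RNA per cell cannot be told apart.

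PRAME (ENSG00000185686.17), on chromosome 22 from 22547701 to 22559361, was low where ACTL8 was high. Its counts were 726 in the parental cells, 10 in CAL27/5FU and 948 in CAL27/OXA, which are 18.6, 0.255 and 21.3 CPM and 7.62, 0.118 and 9.56 FPKM. CAL27/5FU was the low library and the other lines lay close together. Against CAL27, the log2 ratio in CAL27/5FU was -5.94 (-7.26 to -5.30), which ranked 21 among the falls of all tested genes. CAL27/OXA differed from CAL27 by 0.19 (0.05 to 0.34) and from CAL27/5FU by 6.13 (5.50 to 7.45) on that scale, the tenth largest rise. The whole interval was past 2-fold higher in CAL27/5FU than in each other line for 265 tested genes (1.94%), with ACTL8 among them, and past 2-fold lower for 134 (0.98%), with PRAME among them. For CAL27/OXA against each other line, 108 genes (0.79%) were higher and 295 (2.16%) lower, with 0 members among them. PRAME overlaps an antisense gene by 19 nt.

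DDX43 (ENSG00000080007.7), on chromosome 6 from 73394748 to 73417569, had more counts in each resistant line, 382, 647 and 691 in CAL27, CAL27/5FU and CAL27/OXA (3.39, 6.43 and 5.90 FPKM). The log2 ratios to CAL27 were 0.75 (0.57 to 0.94) and 0.66 (0.48 to 0.85), which are within 2-fold, and both share the CAL27 library. The resistant lines differed by -0.09 (-0.24 to 0.07). DDX43 overlaps OOEP on the opposite strand by 386 nt, and OOEP had 23, 53 and 20 counts. DDX43 also overlaps CGAS, by 4055 nt on the opposite strand. SSX2IP had 1349, 1754 and 2406 counts, with log2 ratios to CAL27 of 0.37 (0.27 to 0.48) and 0.64 (0.55 to 0.74). MAGEA4, MAGEA6, DDX43 and SSX2IP, 4 of the 6 members tested, stayed within 2-fold in all 3 comparisons, as did 75.4% of all tested genes.

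**Figure D3:**
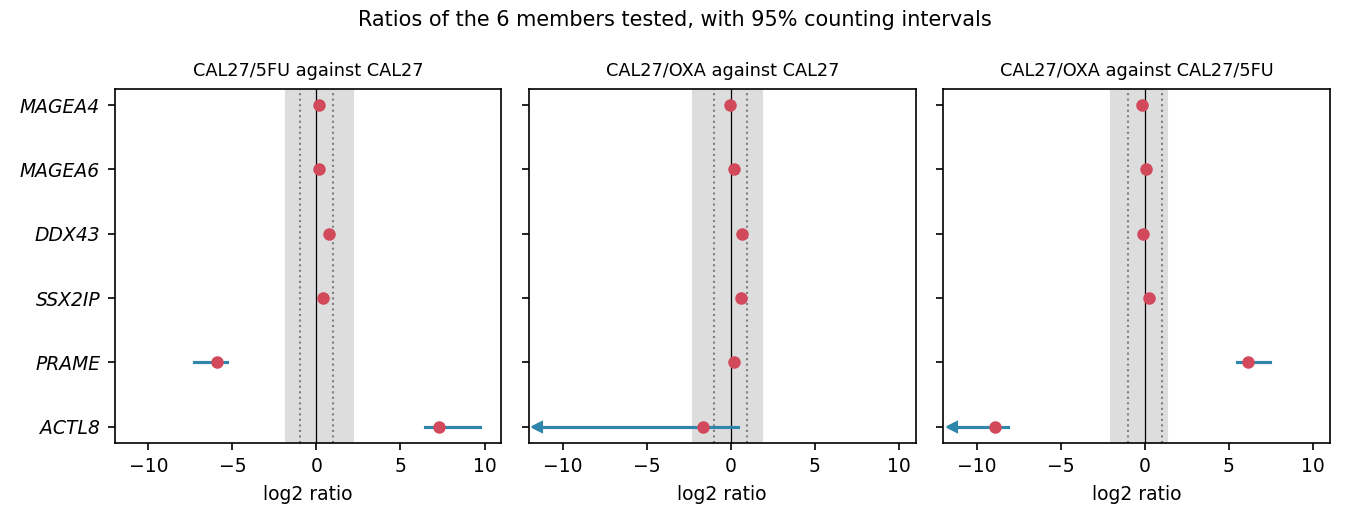
The log2 ratio (x axis) of the 6 members tested in the 3 comparisons, with exact 95% counting intervals (bars, arrows where a bound is open), 2-fold lines (dotted) and the central 95% of all tested genes (grey). PRAME and ACTL8 lie outside the grey range in both comparisons with CAL27/5FU, and the other 4 members lie within the 2-fold lines.

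The order of the members by level per gene length followed from these values, here for the cancer-testis genes without SSX2IP (5.50, 8.02 and 9.44 FPKM). In parental cells it ran from MAGEA4 through MAGEA6 and PRAME (7.62 FPKM) to DDX43 (3.39), with ACTL8 at 0.0514 FPKM. In CAL27/OXA the order of the first 4 was as in CAL27. In CAL27/5FU, ACTL8 (13.2 FPKM) took the place that PRAME held in the other lines, followed by DDX43 (6.43), and PRAME stood at 0.118 FPKM. Summed over the 63 cancer-testis genes, the FPKM values were 155, 200 and 180 in CAL27, CAL27/5FU and CAL27/OXA, of which MAGEA4 and MAGEA6 made up 92.7%, 89.8% and 91.0%.

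A further 8 members exceeded 3 counts in some library, with at most 13 counts. Of the MAGE genes, MAGEB6 had 4, 10 and 5 counts in CAL27, CAL27/5FU and CAL27/OXA. MAGEB18 had 0, 8 and 4, MAGEA8 had 4, 0 and 4, MAGEC3 had 4, 0 and 0, and MAGEA2B had 0, 7 and 0, with 82.4% of its windows shared with other genes. PAGE2B, with 25.3% of its windows shared, reached 13 counts in CAL27/OXA and 0 in the other lines. Taking 3 counts for the 0 in CAL27, this was 3.80-fold higher, a figure that leaves out the counting error of the 13. MAEL, which acts in transposon silencing in germ cells, had 0, 5 and 2 counts, and TEX101, a germ cell surface protein gene, had 6, 0 and 0. Each of these is a trace level, under 0.6 FPKM.

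Some members crossed the floor between lines. Of the 65 symbols, 3 (4.62%) were past the floor in CAL27/5FU and not in CAL27, namely MAGEA2B, MAEL and MAGEB18, beside 3.31% of all genes. The reverse held for TEX101, MAGEC3 and MAGEA8 (4.62%, beside 2.69%). In CAL27/OXA, PAGE2B and MAGEB18 came over the floor (3.08%, beside 3.31%), and ACTL8, TEX101 and MAGEC3 went under it (4.62%, beside 2.73%). Between the resistant lines, PAGE2B and MAGEA8 were past the floor in CAL27/OXA alone (3.08%, beside 2.81%), and ACTL8, MAGEA2B and MAEL in CAL27/5FU alone (4.62%, beside 2.84%). These shares rest on 2 or 3 genes each.

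The 5 nearest tested genes on each side of a member were taken as its neighbours. Those of ACTL8 span 2132 kb and had a median log2 ratio of 0.15 (range -0.79 to 0.82) in CAL27/5FU against CAL27, with 0 past 2-fold. In CAL27/OXA against CAL27, 3 of the 10 were lower and 0 higher, beside 9.28% and 6.54% of all tested genes. They were PADI2, PADI1 and PADI3, at -3.84, -1.56 and -1.15, genes of enzymes that turn peptidylarginine into citrulline. In CAL27/OXA against CAL27/5FU, where ACTL8 was lower, 2 of the 10 were lower and 0 higher, beside 8.38% and 4.18%. They were PADI2 at -4.66 (-5.04 to -4.37) and PADI1 at -1.93 (-2.31 to -1.62). Whether these differences are linked to that of ACTL8 was not tested. The 10 neighbours of PRAME had a median of 0.04 in CAL27/5FU (range -1.45 to 0.34) and -0.17 in CAL27/OXA. In CAL27/OXA against CAL27/5FU their median was -0.06, with 0 past 2-fold. Against CAL27, GNAZ alone among them was past 2-fold lower, with 66, 23 and 31 counts. It was lower in both resistant lines while PRAME was not. Around MAGEA4 the 10 neighbours, MAGEA6 among them, had medians of -0.01 and 0.04 in the resistant lines, around MAGEA6 0.07 and -0.08, and around DDX43 they had medians of 0.09 and -0.02. Neighbours past 2-fold were found there too. They were GABRA3 (1.10 in CAL27/5FU) and GABRE (-1.84 in CAL27/OXA) for both MAGEA genes, NSDHL (-1.14 and -1.20) for MAGEA6, and OOEP (1.13 in CAL27/5FU) and KCNQ5 (1.14 in CAL27/OXA) for DDX43.

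**Figure D4:**
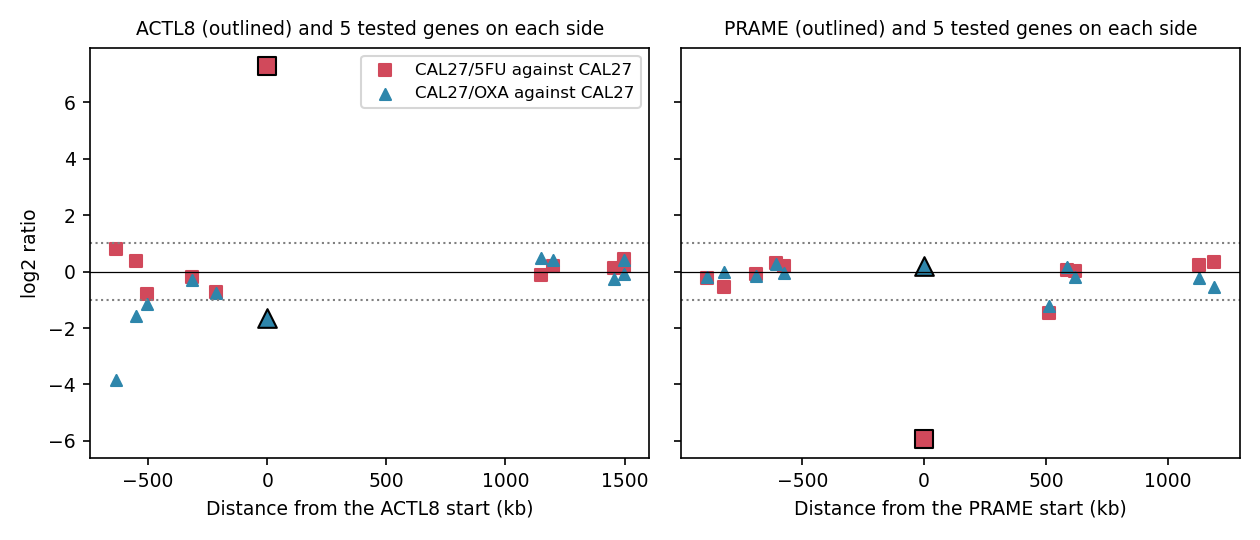
The log2 ratio (y axis) of ACTL8 and PRAME (outlined) and of the 5 nearest tested genes on each side, by distance in kb from the start of the gene (x axis), in CAL27/5FU (squares) and CAL27/OXA (triangles) against CAL27, with dotted lines at 2-fold. In CAL27/5FU, ACTL8 at 7.28 and PRAME at -5.94 lie farthest from 0, and their neighbours lie between -1.45 and 0.82.

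Of 20 tested genes that write, read or erase DNA methylation, 0 were past 2-fold higher and 2 lower in CAL27/5FU, and 0 higher and 2 lower in CAL27/OXA, with medians of -0.01 and 0.01. Over all tested genes, 15.2% and 15.8% were past 2-fold in either direction, so 2 of 20 is not set apart from the background. Under total counts, 0 were past 2-fold in CAL27/5FU, and 2 were higher (UHRF1 and GADD45A) and 1 lower in CAL27/OXA. TET1, which oxidizes methylcytosine, had 300, 145 and 68 counts and log2 ratios to CAL27 of -1.05 (-1.35 to -0.77) and -2.29 (-2.73 to -1.95). The other lower gene in CAL27/5FU was MBD4, at -1.02 (-1.13 to -0.92), named after its value was seen, and neither it nor TET1 was past 2-fold there under total counts. DNMT3A, a de novo methyltransferase, had ratios of -0.14 (-0.33 to 0.05) and -1.02 (-1.24 to -0.80), the first of which turned to 0.03 and the second of which came within 2-fold under total counts. DNMT3B had -0.43 and -0.90. DNMT1, which maintains methylation at replication, had 0.21 and 0.10, and its partner UHRF1 had 0.21 and 0.95. TET2 had -0.38 and -0.63, and TET3 0.03 and -0.28. Methylation itself was not measured in these data.

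Of the 22 histone methylation and deacetylation repressors, 1 was past 2-fold in each resistant line, beside the 15.2% and 15.8% of all tested genes, and it was CBX5, the HP1-alpha gene. Under total counts SETDB2, at 1.03, was also past 2-fold in CAL27/5FU. CBX5 had 1106, 3191 and 481 counts, with log2 ratios to CAL27 of 1.52 (1.42 to 1.62) and -1.39 (-1.55 to -1.23). The list medians were -0.09, which was positive under total counts, and -0.19. The E2F6 complex, a Polycomb form that silences germline genes, had 13 tested genes and 0 past 2-fold in either resistant line, which in a list this short is not set apart from those shares. Within it, E2F6 had ratios of 0.49 (0.35 to 0.64) and -0.47 (-0.65 to -0.31), MGA 0.24 and -0.14, and PCGF6 0.23 and 0.46. CTCFL, a germline paralog of CTCF, had 0 counts in all 3 libraries.

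The MAGE genes of type II, which are expressed in many somatic tissues, held 5 tested genes of 12. Of these, 1 was past 2-fold lower in CAL27/5FU, beside 6.72% of all tested genes, and a list this short gives no share to compare. MAGED1 had 1694, 21 and 2198 counts in CAL27, CAL27/5FU and CAL27/OXA, so that CAL27/5FU was the low library. Its log2 ratio was -6.22 (-7.04 to -5.72) in CAL27/5FU and 0.19 (0.09 to 0.28) in CAL27/OXA. The other 4 tested genes of this list, MAGED2, MAGEE1, MAGEF1 and NSMCE3, were within 2-fold in each resistant line against CAL27. Among the ubiquitin ligases and other partners of MAGE proteins and PRAME, the 12 tested genes besides PRAME were within 2-fold in CAL27/5FU, and so were they in CAL27/OXA. The shares past 2-fold over all tested genes were 15.2% and 15.8%, so in a list this short this is not set apart from the background. TRIM28 had ratios of -0.22 and -0.25, and CUL2 had 0.0024 and 0.13, both named for their role.

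**Figure D5:**
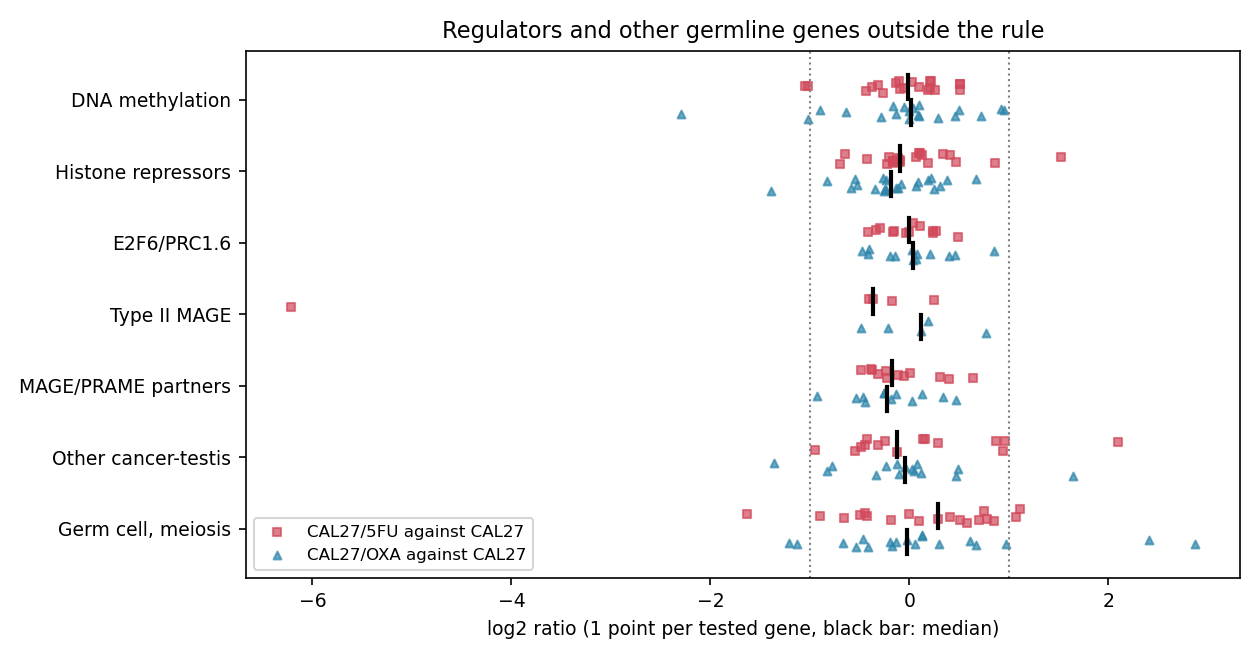
The log2 ratio to CAL27 (x axis) of each tested gene in 7 lists outside the member rule, in CAL27/5FU (squares) and CAL27/OXA (triangles), with the median of each list as a black bar and 2-fold as dotted lines. PRAME is left out of the partner list, and MAGED1, at -6.22 in CAL27/5FU, stands far from the other genes.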

How the data were processed

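Total RNA of 3 libraries was analysed, 1 each of CAL27, CAL27/5FU and CAL27/OXA. The authors deposited raw counts for each of 19220 gene symbols, and FPKM values made from such counts by gene length and library total (19225 genes). Their processing notes name CASAVA 1.8, HISAT2 2.0.5 and GRCh38. The counting tool, the annotation, the strandedness and the handling of reads with several matches are not given in the sources used here. Each table has a further 3 columns of per-sample values, named like the columns used, 1 for each line, but with another final number. They match no sample label and were not used, so whether they hold replicates of these lines was not examined.

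Counts were scaled by TMM (edgeR 4.0.16, R 4.3.3) with a prior count of 2, and the 13676 genes averaging 10 counts or more were tested for being past 2-fold. The floor was 3 counts (0.0675 to 0.0770 CPM), and intervals and floor cover counting error only. The scaling, the 2-fold calls and the intervals were tested on simulated data. The transcript window, promoter, neighbour and overlap steps were not tested this way. The members, the lists and the rule for named genes (all members, and list genes wholly past 2-fold, at the ends of a list or listed by name in the rule) were chosen with earlier results of these data known. Promoter sequences were taken from RefSeq (GRCh38.p14), where 53 of the 65 members matched by symbol. Positions and transcripts came from GENCODE 29, where 61 matched. Exact 100-base windows of transcripts were compared in place of proteins. The alternatives were scaling by total counts, by the upper quartile or by the size factors of DESeq2 1.42.0, other filters, prior counts, thresholds and floors, and FPKM with pseudocounts of 1 and 0.1.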

Additional observations from a re-analysis of the deposited data

Results flagged for a closer look

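PRAME fell past 2-fold in CAL27/5FU and stayed within 2-fold in CAL27/OXA, with ratios of opposite sign. Its log2 ratio to CAL27 was -5.94 in CAL27/5FU and 0.19 in CAL27/OXA, and both counting intervals leave out 0. Both ratios share the CAL27 library, 1 library per line was analysed, and the difference was not tested.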

How the results depend on the processing

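With 1 library per line analysed, none was left out in turn. No paired analysis was possible because the samples with labels share only 1 replicate number. Of 126 log2 ratios of the 6 members tested, recomputed under other scalings, prior counts and FPKM, 101 stayed within their counting interval, 25 left it and 0 changed from a call in one direction to the other. FPKM with a pseudocount of 1 moved ACTL8 to 3.76 and PRAME to -2.95 in CAL27/5FU against CAL27. The call of ACTL8 as lower in CAL27/OXA than in CAL27, which rests on 4 counts, was lost (0 members lower) with a prior count of 5, with either FPKM pseudocount, at 4-fold and with the whole interval past 2-fold. Without the filter on low counts, 19 members were tested, of which 6 were higher and 4 lower in CAL27/5FU against CAL27, 2 and 3 in CAL27/OXA against CAL27, and 3 and 3 in CAL27/OXA against CAL27/5FU. The same numbers over the 16350 genes with a count in any library were 1899 and 1555, 1348 and 1925, and 981 and 1861. The members added this way had at most 13 counts in a library, so nothing is read from their calls. With at least 10 counts, 5, 7 and 6 members were present in CAL27, CAL27/5FU and CAL27/OXA. With an FPKM of at least 0.1, 6, 9 and 6 were.

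The counts over all genes moved too. In CAL27/5FU against CAL27 they were 1899 higher and 1555 lower without the filter, 503 and 311 with an FPKM pseudocount of 1, 404 and 286 at 4-fold, 749 and 593 with the whole interval past 2-fold, and 760 higher with a mean of at least 50 counts. In CAL27/OXA against CAL27 they were 1348 and 1925 without the filter, 368 and 481 with an FPKM pseudocount of 1, 296 and 412 at 4-fold, and 526 higher with the whole interval. In CAL27/OXA against CAL27/5FU they were 981 and 1861 without the filter, 165 and 437 with an FPKM pseudocount of 1, 167 and 352 at 4-fold, 319 and 709 with the whole interval, and 369 higher with a mean of at least 50 counts.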

Other observations

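Further cancer-testis and germline genes were a mixture of silent and expressed genes. Of 41 further cancer-testis genes in the table, 18 had 0 counts in all libraries, 18 were past the floor in at least 1, and 15 were tested. By library, 16, 16 and 18 of the 41 were past it in CAL27, CAL27/5FU and CAL27/OXA, beside 74.8%, 75.4% and 75.4% of all genes. POTEF was past 2-fold higher in CAL27/5FU, with 148, 643 and 157 counts in CAL27, CAL27/5FU and CAL27/OXA and a log2 ratio to CAL27 of 2.10 (1.85 to 2.38). It belongs to a family of close copies, and how reads matching several genes were counted is not stated. Of the 15, 1 was higher and 0 were lower in CAL27/5FU, beside 8.46% and 6.72% of all tested genes. Under total counts, 4 were higher there. In CAL27/OXA, 1 was higher and 1 lower, beside 6.54% and 9.28%. PLAC1, a placental gene, had 38, 76 and 140 counts and was past 2-fold higher in CAL27/OXA at 1.64 (1.17 to 2.25), and ARMC3, with 12, 25 and 4 counts, was lower there at -1.36 (-3.86 to -0.05).

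Of 56 germ cell and meiosis genes in the table, 17 had 0 counts in all libraries, 28 were past the floor in at least 1, and 19 were tested. By library, 25, 24 and 23 of the 56 were past it in CAL27, CAL27/5FU and CAL27/OXA. Of the 19, 2 were past 2-fold higher and 1 lower in CAL27/5FU, beside 8.46% and 6.72% of all tested genes. The numbers in CAL27/OXA were 2 higher and 2 lower, beside 6.54% and 9.28%. In CAL27/OXA, PIWIL1 and MOV10L1 were past 2-fold higher. PIWIL1, which encodes a piRNA-binding Argonaute protein, had 4, 0 and 47 counts in the same order, with a log2 ratio of CAL27/OXA to CAL27 of 2.87 (1.91 to 5.30), and it passed the filter only through CAL27/OXA. MOV10L1, the gene of an RNA helicase of piRNA production, had 16, 29 and 106 counts and a ratio of 2.41 (1.77 to 3.40). Other piRNA genes of the list were within 2-fold in CAL27/OXA, with PIWIL4 at -0.03, TDRD5 at -0.42, TDRD6 at 0.30 and PLD6 at 0.67, named after their values were seen. In CAL27/5FU, TDRD6 and PLD6 were higher, at 1.11 and 1.07, and PIWIL1 was lower on its 4 counts. Genes past 2-fold lower in CAL27/OXA were STAG3 and MEIOC, at -1.13 and -1.21, and STAG3 came within 2-fold under total counts.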
